A study of Mus musculus with 11 samples.

Results

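The genes described here carry anti-Müllerian hormone (AMH) and bone morphogenetic protein (BMP) signals from the cell surface to the nucleus. They are the type I receptors Acvr1 and Bmpr1a, the type II receptor Bmpr2, the receptor-activated SMADs Smad1 and Smad5, the inhibitory SMADs Smad6 and Smad7, and the target genes Id2 and Id3. They were chosen by symbol from a list of 10 genes, of which 9 were analysed among the 21878 rows of the table, and Id1 was not analysed here. All 9 passed the filter on low values (a mean of at least 1 FPKM, fragments scaled by gene model length and library size). Hearts of female mice were compared between 6 control samples, from mice given only the vehicle, phosphate-buffered saline, before birth, and 5 samples from mice that received AMH before birth, a model of polycystic ovary syndrome (PCOS). The labels give all 11 samples the wild-type genotype and name no strain, age, litter or batch. Whether each sample is its own mouse is not stated, and the spread behind every p-value is that of these samples and may be partly technical. The question behind the comparison is whether the heart keeps a transcript-level mark of AMH exposure before birth in the genes through which AMH and BMP signal.

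AMH binds its own dedicated type II receptor but shares its type I receptors and its intracellular messengers with the BMPs. A type II receptor phosphorylates a type I receptor, which in turn phosphorylates SMAD1, SMAD5 or SMAD9, and these enter the nucleus with SMAD4. There they switch on the Id genes, whose products hold back basic helix-loop-helix transcription factors, and Smad6 and Smad7, whose products inhibit the receptors in a feedback loop. In the heart, BMP signals are known for their part in forming the valves and septa before birth and act on endothelial cells throughout life.

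Cardiac transcripts matched the labelled tissue: Actc1, cardiac actin, lay between 8871 and 10923 FPKM in every sample, while the atrial transcripts Sln and Myl7 were at most 2.51 FPKM. Nppa, the natriuretic peptide gene of atrial and stressed muscle, was at 364.1 to 1474 FPKM in controls and 412.0 to 635.0 FPKM in PCOS. Reads recovered from the steps of the FPKM values summed to between 11866291 and 14346620 per sample. Several control libraries stood apart. Control replicate 6 had a median Pearson correlation of 0.962 with the other libraries, across genes, against 0.987 to 0.993 for the other 10, and the sum of its 10 hepatocyte markers was 2032 FPKM against 8.67 to 26.3 FPKM elsewhere. Apoe, which encodes apolipoprotein E, was at 6.04 FPKM in control replicate 2 and 8.29 FPKM in control replicate 5, against 98.8 to 486.3 FPKM in the other 9 samples. In control replicate 4 the 9 endothelial markers summed to 237.7 FPKM, against 329.0 to 412.4 FPKM in the other controls. The 6 fibroblast markers of that library summed to 160.0 FPKM, against 261.2 to 342.0 FPKM in the other controls. Across all 10891 tested rows, 15 differed between PCOS and control at an adjusted p under 0.05 (limma on log2(FPKM + 1), Benjamini-Hochberg adjustment over all rows).

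None of the 9 genes differed between PCOS and control hearts at an adjusted p under 0.05 in limma, where 0.138% of all tested rows did. At an unadjusted p under 0.05, 2 of the 9 passed, both of them lower in PCOS, the type I receptors Acvr1 and Bmpr1a. Among all tested rows 6.68% passed that threshold, 3.17% lower and 3.51% higher. In 0 of the 9 did the groups separate fully, with every PCOS sample above every control (0.45% of tested rows) or below it (0.248%). All 3 receptors and both receptor-activated SMADs had differences below 0, and both inhibitory SMADs and both Id genes had differences above 0. Differences below 0 made up 49.4% of all tested rows. They made up 68.1% of rows over 5000 bases, the class of Bmpr1a, Bmpr2 and Smad5. In rows under 1500 bases, the class of Id2 and Id3, they made up 20.3%. Smad7 and Id2 changed direction when control replicate 4 was left out. The median difference of the 9 was -0.07 on the log2(FPKM + 1) scale (PCOS minus control), against 0.002 over all tested rows. The 95% confidence intervals of the 9 differences, not adjusted for the number of genes, ran from -0.38 at the lowest to 0.49 at the highest. A 1.5-fold change of FPKM from a gene's control mean is 0.50 to 0.58 upward and -0.57 to -0.47 downward on that scale, depending on the gene. In this fit of all 11 samples, such a change lay outside the interval of each of the 9. The intervals of the alternative fits were not compared with it.

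**Figure D1:**
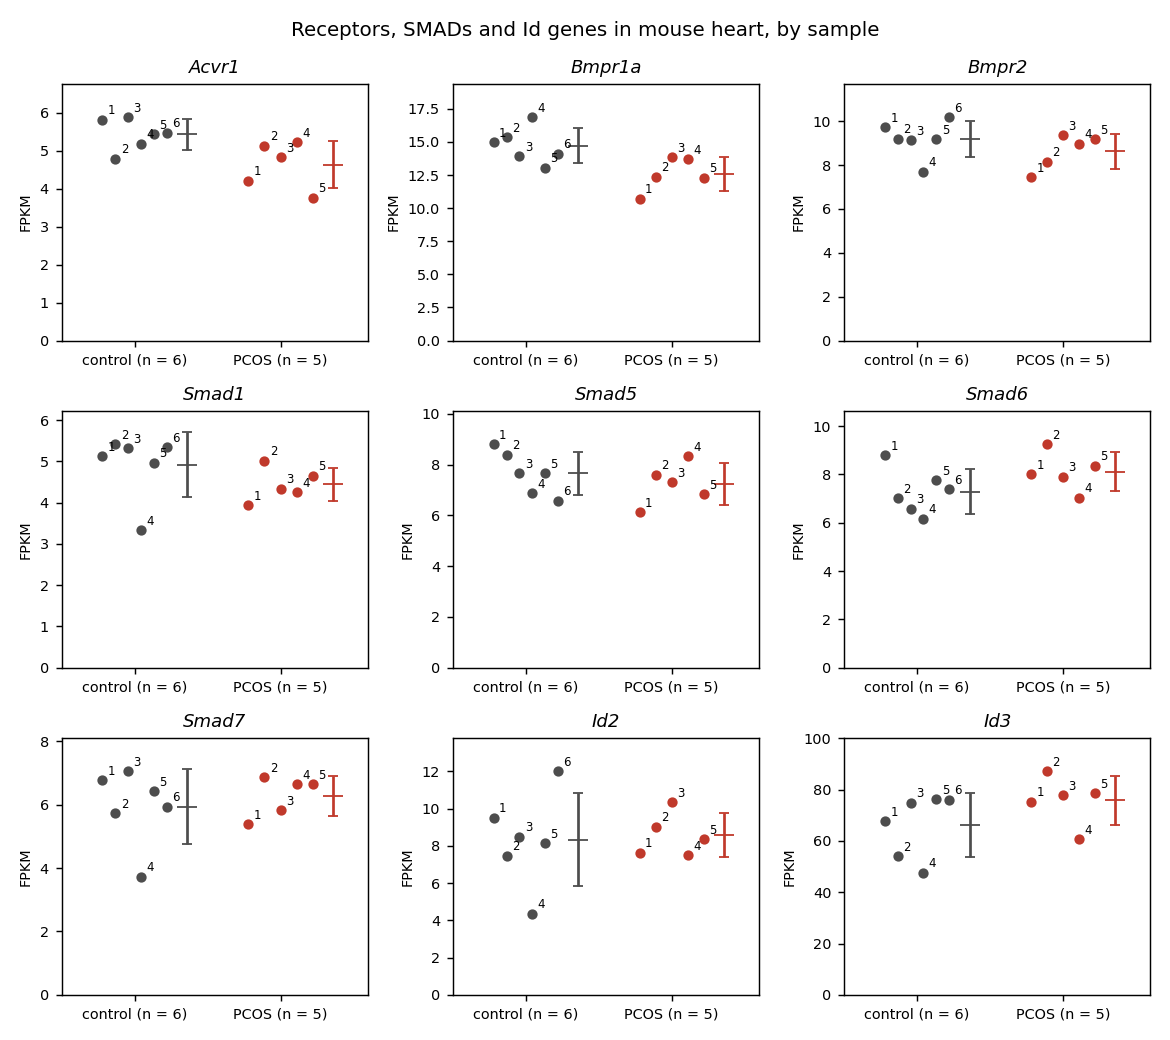
FPKM of the 9 genes in each heart sample, grey for control and red for PCOS, with replicate numbers beside the points and the mean with its SD at the right of each group. The groups overlap in every panel; Bmpr1a has 3 PCOS samples below all controls and Id3 has 3 PCOS samples above all controls.

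Acvr1 encodes ALK2, a type I receptor that AMH and several BMPs share. Its level was 4.79 FPKM in the lowest control, 5.46 FPKM at the control median and 5.88 FPKM in the highest control. In PCOS replicates 1 to 5 it was 4.21, 5.13, 4.83, 5.22 and 3.77 FPKM. All PCOS samples lay below the control median and 2 of them, replicates 1 and 5, below the lowest control. The means were 5.43 ± 0.406 FPKM (SD, n = 6) and 4.63 ± 0.625 FPKM (SD, n = 5). The log2 difference was -0.20 (SE 0.08, 95% confidence interval -0.37 to -0.02, limma adjusted p = 0.738). Its unadjusted p from limma was 0.0302, which placed it at rank 426 of the 10891 rows by p. Its row spans chromosome 2 from 58446438 to 58566828 and rested on 202 to 326 reads per sample. In bulk tissue, fewer cells of a type and less RNA per cell cannot be told apart.

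Bmpr1a encodes ALK3, the type I receptor through which BMP2 and BMP4 act in the developing heart and through which AMH can also signal. It was the most abundant of the 3 receptors, at 13.1 FPKM in the lowest control, 14.5 FPKM at the control median and 16.9 FPKM in the highest. PCOS replicates 1 to 5 held 10.7, 12.4, 13.8, 13.7 and 12.3 FPKM. Of these, 3 lay below every control, and 5 of 6 controls lay above every PCOS sample. Control replicate 5, the lowest control, sat within the PCOS range. The means were 14.7 ± 1.33 FPKM (SD, n = 6) and 12.6 ± 1.28 FPKM (SD, n = 5), with a log2 difference of -0.21 (SE 0.08, 95% confidence interval -0.38 to -0.04, limma adjusted p = 0.738). Its difference stood at percentile 3.82 of all tested rows and that of Acvr1 at percentile 4.75. The gene sits on chromosome 14 from 34411061 to 34503336, with 896 to 1321 reads per sample. Without control libraries 2, 5 and 6 the differences were -0.26 for Bmpr1a (limma adjusted p = 0.412) and -0.24 for Acvr1 (limma adjusted p = 0.460). Without PCOS replicate 1 the difference of Bmpr1a was -0.16 (unadjusted limma p 0.0571), and without PCOS replicate 5 that of Acvr1 was -0.14 (unadjusted limma p 0.0963). Across 23 alternatives the limma adjusted p of Bmpr1a ran from 0.164 to 0.9997 and that of Acvr1 from 0.247 to 0.9997. The unadjusted limma p was under 0.05 in 21 of the 23 for Bmpr1a and in 18 for Acvr1. These fits share most of their samples and are not independent repeats. Both genes overlap a gene on the opposite strand in the GENCODE annotation of GRCm38, Gm17409 for Acvr1 and Gm17110 for Bmpr1a. Which strand was counted is not given in the sources used here, so reads of these partners cannot be told apart. Bmpr2 overlaps Gm38125, and Smad5 overlaps Gm27301, Gm27834 and Gm27271, all on the same strand, where strand could not separate the reads.

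Bmpr2 encodes the type II receptor that pairs with both ALK2 and ALK3 for BMP ligands. Controls ranged from 7.70 to 10.2 FPKM with a median of 9.19 FPKM, and PCOS replicates 1 to 5 were at 7.44, 8.14, 9.37, 8.98 and 9.18 FPKM. The groups overlapped over most of their range, with 1 PCOS sample below all controls and 2 controls above all PCOS samples. Its difference on the log2 scale was -0.08 (SE 0.08, 95% confidence interval -0.25 to 0.08, limma adjusted p = 0.811). It was -0.13 without control replicate 4, -0.04 without PCOS replicate 1, -0.05 without control replicate 6 and -0.03 without control libraries 2, 5 and 6. The row lies on chromosome 1 from 59764279 to 59878081, with 1079 to 1492 reads per sample, the deepest of the receptors.

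Smad1 and Smad5 encode the messengers that the type I receptors phosphorylate. Smad1 was at 3.34, 5.22 and 5.42 FPKM in the lowest, median and highest control, and at 3.94, 5.02, 4.34, 4.26 and 4.65 FPKM in PCOS replicates 1 to 5. All 5 PCOS samples lay below the control median, and control replicate 4 lay below them all. Its log2 difference was -0.11 (SE 0.10, 95% confidence interval -0.33 to 0.11, limma adjusted p = 0.809). Without control replicate 4 it was -0.20, with an unadjusted limma p of 0.0107 (limma adjusted p = 0.759). Without control libraries 2, 5 and 6, which leaves replicate 4 as 1 of 3 controls, it was -0.02. Of 22 alternatives for Smad1, only 1, without control replicate 4, had an unadjusted limma p under 0.05.

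Smad5 was at 6.58, 7.66 and 8.80 FPKM in the lowest, median and highest control, and at 6.11, 7.60, 7.31, 8.32 and 6.83 FPKM in PCOS replicates 1 to 5. PCOS replicate 1 was the lowest of all 11 samples, and the other PCOS samples fell within the control range. The log2 difference was -0.07 (SE 0.09, 95% confidence interval -0.26 to 0.11, limma adjusted p = 0.838). Leaving out PCOS replicate 4 gave -0.12, leaving out PCOS replicate 1 gave -0.02 and leaving out control replicate 1 gave -0.04. The rows lie on chromosome 8 from 79338395 to 79399428 (Smad1, 138 to 247 reads per sample) and on chromosome 13 from 56703010 to 56742378 (Smad5, 610 to 860 reads per sample).

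Smad6, Smad7, Id2 and Id3 are known targets of the activated SMADs. For that reason the bases before a RefSeq transcript start of Smad6, Id2 and Id3 are shown for the SMAD-binding letters they hold (RefSeq, GRCm38.p6, 5′ to 3′, 250 bases each). The windows are chr9:64022060-64022309 on the minus strand for Smad6, chr12:25096093-25096342 on the minus strand for Id2 and chr4:136143572-136143821 on the plus strand for Id3. Capitals mark matches to GGCGCC, a GC-rich box known to bind SMAD1 and SMAD5, or to GNCGNCNNNNNGTCT, a GC-rich part spaced from the GTCT letters that SMAD4 prefers.
Smad6: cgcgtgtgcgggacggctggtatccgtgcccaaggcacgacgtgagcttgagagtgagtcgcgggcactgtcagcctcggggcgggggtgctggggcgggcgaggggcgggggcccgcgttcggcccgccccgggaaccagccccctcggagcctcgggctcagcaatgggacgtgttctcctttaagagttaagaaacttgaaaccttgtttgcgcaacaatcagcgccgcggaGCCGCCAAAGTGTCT
Id2: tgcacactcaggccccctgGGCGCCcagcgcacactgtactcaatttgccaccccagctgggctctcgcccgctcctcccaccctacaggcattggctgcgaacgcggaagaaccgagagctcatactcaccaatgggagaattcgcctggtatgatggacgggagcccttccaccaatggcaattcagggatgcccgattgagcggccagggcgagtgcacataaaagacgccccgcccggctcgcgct
Id3: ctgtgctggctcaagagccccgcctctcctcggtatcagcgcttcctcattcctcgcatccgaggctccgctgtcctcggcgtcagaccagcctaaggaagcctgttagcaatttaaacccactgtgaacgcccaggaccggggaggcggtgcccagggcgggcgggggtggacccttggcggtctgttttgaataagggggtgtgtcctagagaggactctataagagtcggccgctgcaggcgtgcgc
The Id2 and Id3 windows end where their rows begin, while the last 26 bases of the Smad6 window lie inside the span of its row. The Smad6 window holds the spaced form at bases 236 to 250, counted from 1 at its 5′ end, which is within those 26 bases. Of 32851 promoter windows of the same length, searched on both strands, 0.511% hold that form. The Id2 window holds GGCGCC at bases 20 to 25, a box in 9.59% of all windows, and the windows of Bmpr1a, Bmpr2 and Smad5 hold it as well. The Id3 window holds neither, and holds GTCTG, found in 42.2% of all windows, at bases 84 to 88 on the minus strand and 183 to 187 on the plus strand. No matches overlap in these 3 windows; in the Smad5 window GGCGCC at bases 232 to 237 overlaps GTCTG on the minus strand at bases 230 to 234. A match describes letters in this window only. Promoter entries were found for 8 of the 10 listed genes. Smad7 is not shown, and no match to GGCGCC, the spaced form or GTCTG was recorded for it. A missing entry and a missing match are not told apart for Smad7 here.

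Smad6 encodes the inhibitory SMAD that is most specific to BMP signalling. It was at 6.18, 7.21 and 8.81 FPKM in the lowest, median and highest control, and at 8.001, 9.25, 7.90, 7.04 and 8.36 FPKM in PCOS replicates 1 to 5. Of the PCOS samples 4 lay above the control median and 1, replicate 2, above every control. Control replicates 1, 5 and 6 lay within the PCOS range. The means were 7.29 ± 0.932 FPKM (SD, n = 6) and 8.11 ± 0.801 FPKM (SD, n = 5), with a log2 difference of 0.14 (SE 0.09, 95% confidence interval -0.05 to 0.33, limma adjusted p = 0.753). Without control replicate 1 the difference was 0.19, the highest of 23 alternatives, with an unadjusted limma p of 0.0347 (limma adjusted p = 0.806). The lowest was 0.095, without PCOS replicate 2 (unadjusted limma p 0.309). Only 1 of the 23 had an unadjusted limma p under 0.05. The row lies on chromosome 9 from 63953076 to 64022085, with 234 to 353 reads per sample.

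Smad7 encodes the inhibitory SMAD that restrains both BMP and TGF-beta receptors. Controls were at 3.73, 6.19 and 7.05 FPKM (lowest, median and highest) and PCOS replicates 1 to 5 at 5.39, 6.86, 5.84, 6.64 and 6.64 FPKM. All PCOS samples lay between the lowest and the highest control. On the log2 scale the difference was 0.08 (SE 0.12, 95% confidence interval -0.18 to 0.35, limma adjusted p = 0.869). It was -0.02 without control replicate 4, the lowest sample. It spans chromosome 18 from 75367365 to 75395935, with 209 to 444 reads per sample.

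Id3 was the most abundant of the 9 genes and had the difference furthest above 0 among them. Controls held 47.6, 71.3 and 76.2 FPKM (lowest, median and highest), and PCOS replicates 1 to 5 held 75.2, 87.1, 77.7, 60.7 and 78.6 FPKM. Of the PCOS samples 3 lay above every control, and PCOS replicate 4 lay among the lower controls. Control replicates 2 and 4 were the only samples below 60 FPKM. The means were 66.1 ± 12.4 FPKM (SD, n = 6) and 75.9 ± 9.58 FPKM (SD, n = 5), with a log2 difference of 0.21 (SE 0.13, 95% confidence interval -0.07 to 0.49, limma adjusted p = 0.753). That difference stood at percentile 95.7 of all tested rows. Leaving out control replicate 4 gave 0.12, leaving out control replicate 6 gave 0.25 and leaving out PCOS replicate 4 gave 0.29. The row lies on chromosome 4 from 136143822 to 136145392, with 573 to 1063 reads per sample.

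Id2, which is expressed in the cardiac conduction system as well as in endothelial and immune cells, had the widest spread of the 9 relative to its mean, within controls. Controls held 4.36, 8.32 and 12.0 FPKM (lowest, median and highest), and PCOS replicates 1 to 5 held 7.63, 9.02, 10.4, 7.51 and 8.37 FPKM. All PCOS samples lay inside the control range, whose lowest value came from control replicate 4 and highest from control replicate 6. The log2 difference was 0.08 (SE 0.18, 95% confidence interval -0.30 to 0.46, limma adjusted p = 0.917). It was -0.07 without control replicate 4, 0.18 without control replicate 6 and 0.23 without control libraries 2, 5 and 6. The row lies on chromosome 12 from 25093799 to 25096092 and had the fewest reads, 70 to 196 per sample.

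FPKM is scaled by gene model length, so levels can be ranked roughly between genes. Isoforms were not separated and some rows overlap other genes, so the order of genes with similar levels is approximate. In controls the order of mean FPKM was Id3, Bmpr1a, Bmpr2, Id2, Smad5, Smad6, Smad7, Acvr1 and Smad1. Only Id3 and Bmpr1a stood clear of their lower neighbour, with no overlap between samples, and all later neighbours overlapped. The order in PCOS was the same except that Smad6, at 8.11 FPKM, came before Smad5, at 7.23 FPKM, and those ranges also overlapped. Id3 and Bmpr1a again stood clear, and Smad7 stood above Acvr1 with no overlap (lowest Smad7 5.39 FPKM, highest Acvr1 5.22 FPKM). Whether this separation differed between the groups was not tested. Among all tested rows by mean FPKM, Id3 stood at percentile 91.8, Bmpr1a at percentile 66.7 and Smad1, the lowest of the 9, at percentile 35.6.

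Control replicate 4 often marked the edge of the control range. It was the lowest control in 6 of the 9 genes (Bmpr2, Smad1, Smad6, Smad7, Id2 and Id3) and the highest in 1, Bmpr1a. It was the lowest of all 11 samples in 5 of them, and PCOS replicate 1 was the lowest in 3, Bmpr1a, Bmpr2 and Smad5. Most marker sums were low in the same library. Besides the endothelial and fibroblast sums, control replicate 4 was below every other control in the macrophage (127.9 against at least 153.3 FPKM), erythroid (530.3 against at least 689.2 FPKM), adipocyte (596.1 against at least 725.8 FPKM), hepatocyte (8.67 against at least 12.8 FPKM) and immediate-early sums (192.8 against at least 212.1 FPKM). Its atrial sum was above every other control (1476 against at most 1054 FPKM), and its cardiomyocyte and smooth muscle sums lay within their range. The part of these shifts in the differences was not tested. Between the groups, the sum of the 9 endothelial markers ran from 237.7 to 412.4 FPKM in controls and from 277.0 to 360.5 FPKM in PCOS. In limma 2 of these 9 had a difference above 0 and 7 below 0, and none passed (lowest adjusted p = 0.738). Flt1, the VEGF receptor with the smallest p of that list, differed by -0.39 (SE 0.16), and Egfl7, its most abundant member, by 0.16 (SE 0.12). No endothelial marker was at 0.

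**Figure D2:**
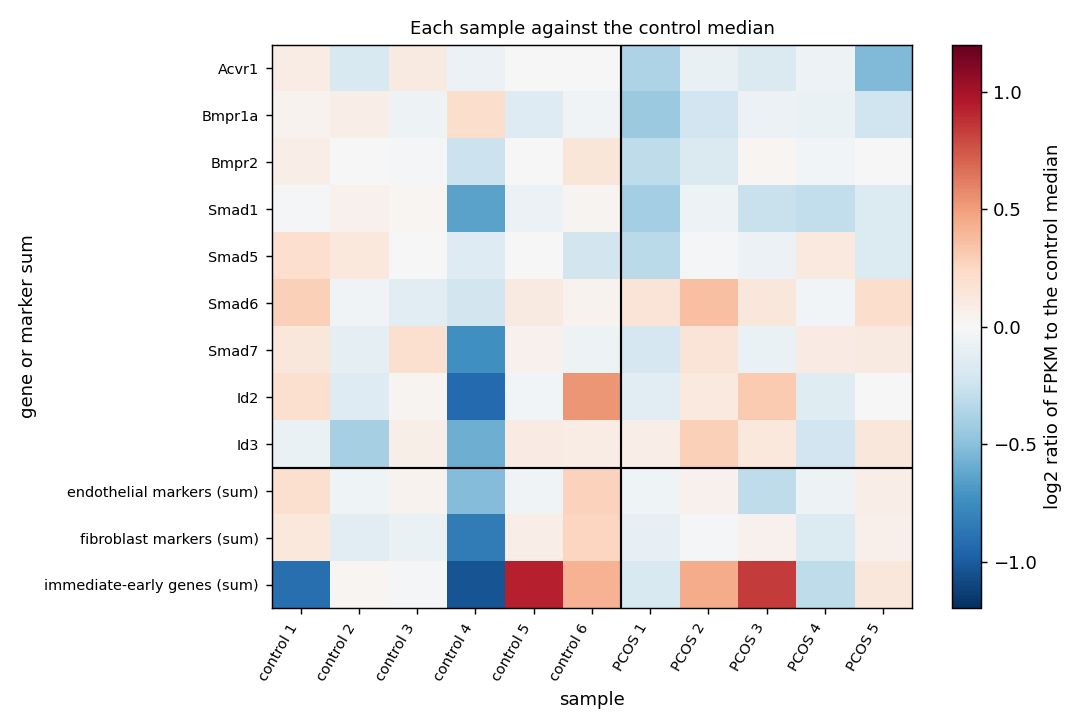
Log2 ratio of FPKM in each sample to the control median, for the 9 genes (upper block) and for the sums of endothelial, fibroblast and immediate-early genes (lower block), controls to the left of the line. Control replicate 4 is low in most rows, with Bmpr1a above the median there, and Acvr1 and Bmpr1a are below the control median in all 5 PCOS samples.

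Other cell types and states that the tissue held were read in the same way. The 6 macrophage and monocyte markers with a row summed to 127.9 to 245.1 FPKM in controls and 273.8 to 381.9 FPKM in PCOS, with no overlap. Of the 5 tested, 5 had a difference above 0 and 1 passed, the lysosomal glycoprotein Cd68 (log2 difference 1.73, SE 0.17, limma adjusted p = 0.000298), while Lyz2, lysozyme, differed by 0.79 (SE 0.17). Erythroid markers, led by Hbb-bs (log2 difference 0.68, SE 0.26), summed to 530.3 to 1528 FPKM in controls and 849.5 to 2229 FPKM in PCOS. All 5 of their tested members had a difference above 0 with an unadjusted limma p under 0.05, as 3.51% of all rows did. After adjustment 0 of the 5 passed. Immediate-early genes, which respond to handling and to many stimuli, summed to 192.8 to 754.0 FPKM in controls and 320.8 to 708.2 FPKM in PCOS. Of their 8 tested members 0 passed, with Dusp1, a phosphatase, at a difference of 0.29 (SE 0.23) and Ier2 at 0.42 (SE 0.29). The sums of fibroblast markers (160.0 to 342.0 and 254.6 to 297.2 FPKM) and of smooth muscle and pericyte markers (224.9 to 373.4 and 269.9 to 361.3 FPKM) overlapped between the groups. The part of these cells in the differences of the 9 genes was not tested.

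Gene model length moved with the differences. Over all tested rows the median log2 difference was 0.09 in 1475 rows shorter than 1500 bases and -0.05 in 3001 rows longer than 5000 bases. Differences below 0 made up 20.3% of the first and 68.1% of the second, against 49.4% of all tested rows. Id3 (953 bases) and Id2 (1272 bases) are short, while Bmpr1a (6199 bases), Smad5 (7392 bases) and Bmpr2 (11097 bases) are long. With the length trend of each sample removed before the fit, an alternative chosen after the data were seen, the difference of Id3 was 0.11 and that of Id2 was -6.06e-06. Those of Bmpr2 and Smad5 were then -0.03 and -0.02. The differences of Acvr1 (-0.18), Bmpr1a (-0.17), Smad1 (-0.11), Smad6 (0.14) and Smad7 (0.11) moved less, and none of the 9 passed (lowest limma adjusted p = 0.752). Of the unadjusted limma p-values, that of Bmpr1a was then 0.0610 and no longer under 0.05, and that of Acvr1 was 0.0359. For Acvr2a and Smurf2, described below, it was 0.0553 and 0.0558.

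**Figure D3:**
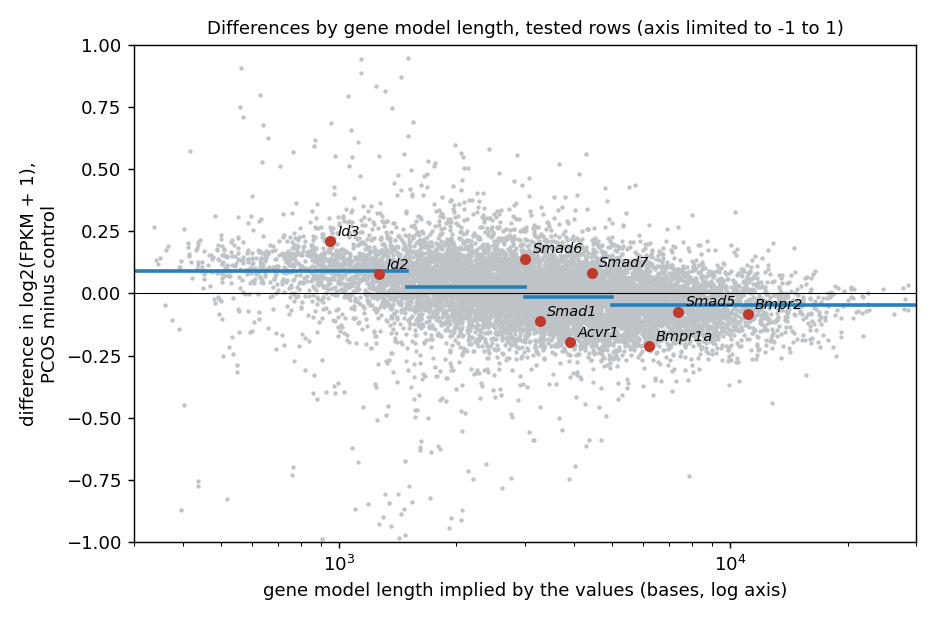
Difference in log2(FPKM + 1), PCOS minus control, against the gene model length implied by the values (log axis), for tested rows in grey and the 9 genes in red, with the median of each of 4 length classes as a blue line. The blue lines step down from 0.09 below 1500 bases to -0.05 above 5000 bases; Acvr1 and Bmpr1a lie below the line of their class and Smad6 and Smad7 above it.

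The rest of the pathway was read from 72 further genes, of which 67 had a row and 43 were tested. The hormone's own gene, Amh, and its dedicated type II receptor were not analysed here. In limma 0 of the 43 passed in either direction, against 0.138% of all rows. At an unadjusted limma p under 0.05, 3 passed (1 higher and 2 lower), against 6.68% of all rows. The median difference was -0.06, against 0.002 over all rows. Of the 43, 17 were above 0 and 26 below 0, where 49.4% of all rows were below 0. Many of the 43, such as Acvr2a, Smad4 and Tcf4, have gene models over 5000 bases, a class with 68.1% of rows below 0. The part of length in this count was not tested. Of 14 ligand genes with a row, 3 were tested. Bmp6, made by endothelial and other cells, was the most abundant of them, with means of 13.7 ± 3.16 FPKM (controls) and 12.0 ± 2.41 FPKM (PCOS; log2 difference -0.17, SE 0.16). Dropping control replicate 4 gave -0.28, and dropping PCOS replicate 3 gave -0.07. Bmp4, a ligand of Bmpr1a, was at 4.39 ± 0.710 and 5.29 ± 0.734 FPKM (log2 difference 0.23, SE 0.11, limma adjusted p = 0.738), with 4 of 5 PCOS samples above every control. Bmp2, Bmp7 and Bmp10 had means of 0.392, 0.457 and 0.015 FPKM and were not tested.

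Among other receptors, Acvr2a, a type II receptor for activins and BMPs, had a control mean of 4.61 ± 0.656 FPKM and a PCOS mean of 3.77 ± 0.437 FPKM. Its log2 difference was -0.23 (SE 0.09, limma adjusted p = 0.738), and 5 of 6 controls lay above every PCOS sample. Acvrl1, the endothelial type I receptor ALK1, differed by 0.07 (SE 0.11), a value that dropping control replicate 4 took to 0.0049 and dropping control replicate 6 took to 0.15. Bmpr1b, the remaining BMP type I receptor, was at a mean of 0.048 FPKM. The co-receptors Tgfbr3 and Bambi, the second a decoy without a kinase, differed by -0.19 (SE 0.10) and -0.11 (SE 0.10). Of 8 tested extracellular antagonists and binding proteins, 4 were above 0 and 4 below, among them Crim1, which holds BMPs at the cell surface (-0.16, SE 0.09), and Fstl3, a follistatin-like inhibitor (-0.21, SE 0.13). Smad4, the shared partner SMAD, and Smad2 differed by -0.09 (SE 0.07) and -0.06 (SE 0.08). Several of these values moved when libraries were left out. Without control libraries 2 and 5, Tgfbr3 was at -0.09, Bambi at -0.22 and Fstl3 at -0.31, and Fstl3 was at -0.10 without control replicate 4. Without PCOS replicate 1, Crim1 was at -0.10, Smad4 at -0.03 and Smad2 at -0.01. Acvr2a was at -0.15 without control libraries 2, 5 and 6.

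Smurf2 encodes a ubiquitin ligase that marks SMADs and their receptors for breakdown. It was at 6.81, 7.25 and 8.01 FPKM in the lowest, median and highest control, and at 5.81, 6.62, 6.59, 6.65 and 6.78 FPKM in PCOS replicates 1 to 5. Every PCOS sample lay below every control, a pattern that 0.248% of all tested rows shared, although the gap between the groups was narrow. The log2 difference was -0.15 (SE 0.06, 95% confidence interval -0.28 to -0.02, limma adjusted p = 0.738), and the limma adjusted p was at lowest 0.237 over 23 alternatives. Tob1, an antiproliferative protein that dampens SMAD signalling, differed by -0.19 (SE 0.10), and by -0.10 without control libraries 2 and 5.

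Atoh8, a helix-loop-helix factor known as a BMP target in endothelial and liver cells, had the highest difference of the 43. It was at 4.71, 5.15 and 7.49 FPKM in the lowest, median and highest control, and at 6.67, 7.91, 6.24, 6.25 and 7.83 FPKM in PCOS replicates 1 to 5. All PCOS samples lay above 5 of the 6 controls, and control replicate 3 stood among the highest PCOS samples. The log2 difference was 0.30 (SE 0.11, 95% confidence interval 0.07 to 0.53, limma adjusted p = 0.738). It was 0.37 without control replicate 3 and 0.19 without control libraries 2, 5 and 6. Tbx20, a cardiac transcription factor, differed by -0.11 (SE 0.08). The E proteins that Id proteins bind showed differences of -0.17 (SE 0.09) for Tcf12 and -0.07 (SE 0.08) for Tcf4. Without control libraries 2, 5 and 6 these were -0.07 and -0.01. Tbx20 was at -0.05 without PCOS replicate 1.

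**Figure D4:**
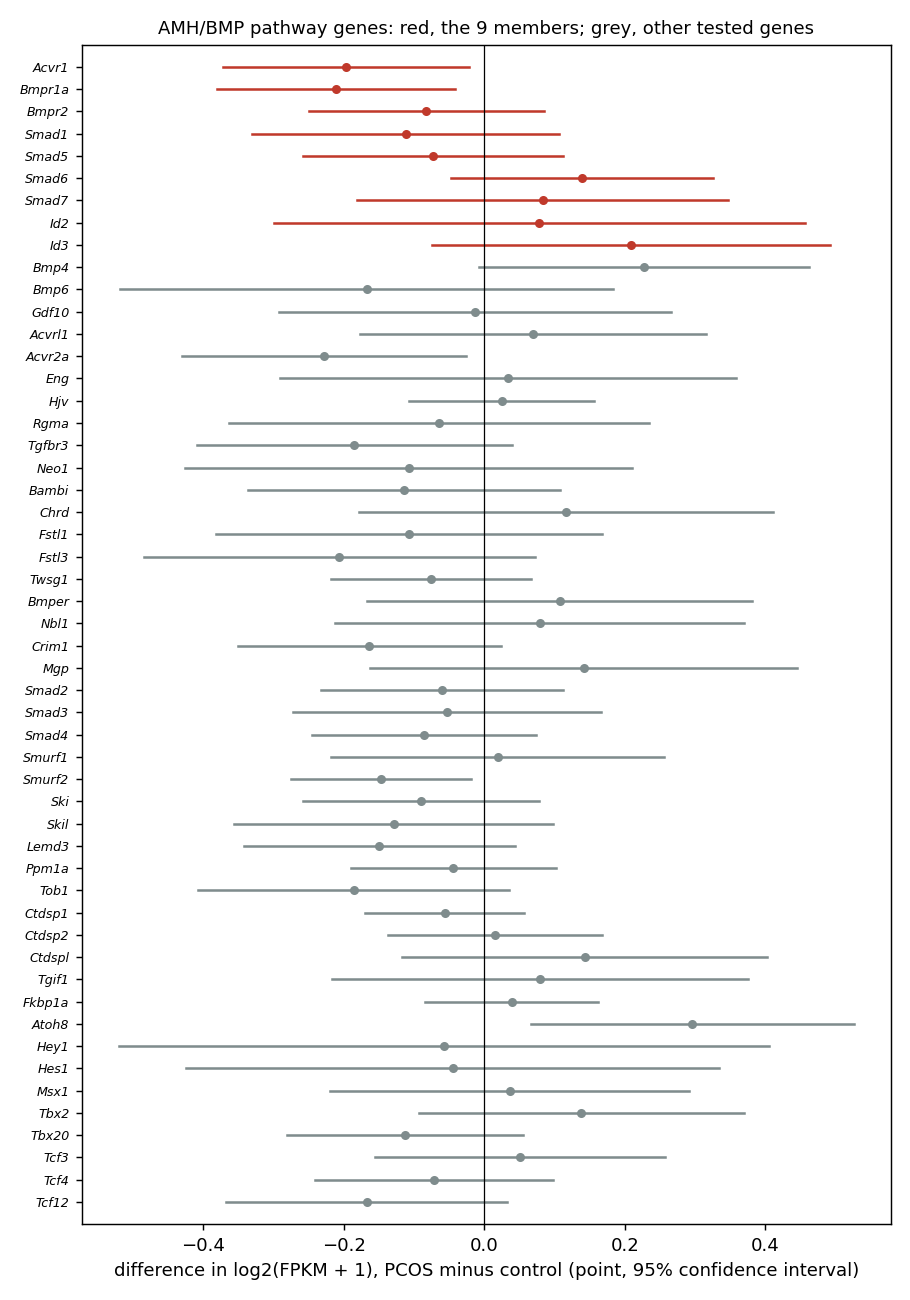
Difference in log2(FPKM + 1), PCOS minus control, with its unadjusted 95% confidence interval, for the 9 genes in red and the other 43 tested pathway genes in grey. Most intervals cross 0; those of Acvr1, Bmpr1a, Acvr2a and Smurf2 lie below 0 and that of Atoh8 above 0.

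The genes whose log2(FPKM + 1) followed Bmpr2 most closely over the 11 samples were Aldh3a2 (Pearson r 0.92), Nptn (0.91), Syncrip (0.91), Purb (0.90) and Uhrf2 (0.90). For Id3 they were Ppbp (Pearson r 0.96), Tgfb1 (0.93), Rassf1 (0.92), Tcim (0.92) and Sat1 (0.91). These are rankings over samples that share libraries and length trends, given as a description.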

How the data were processed

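RNA of 11 heart samples (6 control, 5 PCOS) was extracted with a mirVana kit and sequenced from TruSeq Stranded mRNA libraries, per the labels' protocols. The build mm10, the aligner HISAT2 2.2.1 and the counter HTSeq 0.13.5 stand in the submitters' processing notes, which also list Trimmomatic 0.38, FastQC 0.11.9, DESeq2 1.18.1 and R 3.4.1 and give no settings. The authors deposited FPKM, 1 value per RefSeq accession and sample, used as they stand; FPKM is relative within a library, so a few abundant transcripts can shift the others.

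Accessions were matched to symbols in RefSeq's GRCm38.p6 table: 13175 rows by version, 5903 by accession with another version, 2800 not. Rows are gene models, so isoforms were not separated. Whole reads were recovered from the FPKM steps in all 15939 rows above 0 in at least 3 samples (tolerance 0.005 of a read), which gave depth and gene model length. Counting error is only part of the spread between samples.

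Rows with a mean of at least 1 FPKM were fitted with limma 3.58.1 in R 4.3.3 (eBayes with trend) on log2(FPKM + 1), with Benjamini-Hochberg adjustment over all 10891 rows. That scale understates changes of low genes. The fit and the recovery were tested on simulated data. The fit called 16.7% of simulated 1.2-fold changes, 84.5% of 1.5-fold changes and 96.9% of 2-fold changes, with 7 false calls. These were folds of FPKM + 1, given only to genes above a low level. In low genes the same fold of FPKM is a smaller change on that scale, so fewer would be called. Each gene was drawn independently there. The recovery was right in 554 of 554 simulated rows. Alternatives were the filter (none, or 5 FPKM), a pseudocount of 0.1, 2 scalings, a robust prior, sample weights, a block for the replicate number, leaving out each sample, controls 2 and 5, or controls 2, 5 and 6, limma's voom on recovered reads and, added after seeing the data, removal of the length trend.

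The members and gene lists were chosen with earlier results of these data known. Named were the members, the 2 pathway genes with the smallest p per list, and the most abundant and smallest-p marker of each marker list; other genes named were chosen after their values were seen, as was Id3 for the ranking of like genes, in place of Id1. Depth was 11866291 to 14346620 reads per sample.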

Additional observations from a re-analysis of the deposited data

Results flagged for a closer look

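Each named gene was checked within each group for a single sample far from the rest: 88 groups of 44 genes gave 11 such samples. Chance flags about 1 group in 20. Among the 9 genes only Smad1 was flagged, in control replicate 4, at 3.34 FPKM against 4.97 to 5.42 FPKM in the other controls.

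PCOS replicate 1 was the low sample of its group in Tgfbr3 (6.93 FPKM against 8.54 to 8.92 FPKM), Smad2 (2.32 FPKM against 2.86 to 3.07 FPKM), Smad4 (7.11 FPKM against 8.79 to 9.33 FPKM) and Smurf2 (5.81 FPKM against 6.59 to 6.78 FPKM).

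Control replicate 6 was the high sample of its group in 5 marker genes. These were the liver transcripts Alb (851.7 FPKM against 0 to 1.06 FPKM) and Apoa1 (274.3 FPKM against 0 to 2.499 FPKM), the adipocyte gene Cfd (7.14 FPKM against 0.0777 to 1.52 FPKM), the pericyte gene Rgs5 (186.1 FPKM against 83.8 to 119.3 FPKM) and the troponin gene Tnni3 (7740 FPKM against 5527 to 6119 FPKM). Apoa1 in PCOS replicate 2 was flagged at 0.318 FPKM against 0 to 0.0750 FPKM in the other PCOS samples.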

How the results depend on the processing

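Of 206 refits of the 9 genes under 23 alternatives, 0 passed an adjusted p of 0.05 in limma and 203 kept their direction. The others were Smad7 (-0.024) and Id2 (-0.072) without control replicate 4, and Id2 with the length trend removed (-6.06e-06). When each sample was left out, Smad7 ran from -0.02 to 0.13 and Id2 from -0.07 to 0.18. Among 16 other named pathway genes, 0 passed and 1 changed direction: Smad2, at 0.0036 without control libraries 2, 5 and 6. Over all rows, the 15 called genes became 5 with the filter at 5 FPKM and 25 with sample weights, and 10 to 32 when each sample was left out, 32 without control replicate 6. With the replicate number as a block the count was 25. That fit gives control replicate 6 no partner. Correlations of the deviations of control and PCOS samples with the same number ran from -0.12 to 0.25. So few pairs cannot show whether such samples share a litter or batch, which the labels do not name. Among the 9 genes Id2 had the fewest reads, 70 in control replicate 4, and Fstl3 among the other named pathway genes had as few as 49.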

Other observations

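The 4 most abundant transcripts of the wider pathway, named after their values were seen, encode proteins that meet the ligand or the receptor. Mgp, which encodes a matrix protein that binds BMPs, was at 369.9 ± 76.2 FPKM in controls (SD, n = 6) and 404.0 ± 57.1 FPKM in PCOS (SD, n = 5). Hjv, the muscle and liver BMP co-receptor hemojuvelin, was at 139.7 ± 11.2 FPKM and 141.8 ± 3.51 FPKM, with a log2 difference of 0.02 (SE 0.06). Fkbp1a, which encodes the immunophilin that keeps type I receptors silent without ligand, was at 90.8 ± 5.995 FPKM and 93.2 ± 2.94 FPKM, with a log2 difference of 0.04 (SE 0.06). Eng, the endothelial co-receptor endoglin, was at 53.6 ± 12.0 FPKM and 54.3 ± 8.25 FPKM. None of the 4 passed in limma, and the groups overlapped in each.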
